A study of Mus musculus with 10 samples.

Results

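The 9 genes described here, Ly6a, Ly6d, Prom1, Cd24a, Epcam, Psca, Tspan8, Kit and Ppp1r1b, are markers used to recognise progenitor and luminal epithelial cells of the prostate. They were taken as a named list, and their Ensembl identifiers were mapped to mouse symbols. All 9 were found among the 47069 gene identifiers of each count file, and all 9 were among the 17644 genes that passed the filter on low counts. RNA was sequenced from 10 tumours grown after about 5000000 mouse prostate cancer cells were injected into an anterior prostate lobe of male CD-1 Nude mice. Nude mice lack a normal thymus and most mature T cells. Line P1 was derived from a prostate tumour of a donor aged 14 months and gave 3 tumours. Lines CP1 and CP2 were derived from prostate tumours of donors carrying Ctnnb1pc(ex3)Δ/+, an exon deletion that stabilises beta-catenin, aged 6 and 8 months, and gave 3 and 4 tumours. The donors of P1 and of the CP lines differed in more than this allele, and each group is 1 cell line, so line, genotype and donor age cannot be told apart. Each tumour was grown in the prostate of a host mouse, and reads from host tissue and from injected cells were counted together.

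The prostate gland is built of secretory luminal cells, an outer layer of basal cells and, near the urethra, luminal cells with progenitor activity. Ly6a encodes Sca-1, a small surface protein anchored by a lipid tail, which marks progenitor-rich fractions of mouse prostate but is also made by endothelium, lymphocytes and stromal cells. Ly6d and Psca encode relatives of Sca-1 that mark proximal and castration-resistant luminal cells, and Psca is also made by the bladder lining. Prom1 encodes CD133, Cd24a encodes the mucin-like protein CD24, and Epcam encodes an adhesion protein of most simple epithelia. Tspan8 encodes a tetraspanin of glandular epithelia, Kit encodes the receptor for stem cell factor, and Ppp1r1b encodes DARPP-32, an intracellular inhibitor of protein phosphatase and a transcript of proximal luminal cells.

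Libraries held 28050484 to 37180721 counts in P1, 25081535 to 30546426 in CP1 and 18800912 to 20638085 in CP2. Levels below are counts per 1000000 counts (CPM), on scaled library sizes. In a CP2 library, 3 counts correspond to 0.137 to 0.154 CPM. Ctnnb1 itself stood at 1798 to 1953 CPM in P1, 917 to 1172 in CP1 and 937 to 1044 in CP2, and counts per gene do not check the deleted exon. Seminal vesicle RNA, read from 9 genes, made up 15.1% of P1 replicate 1, 6.85% of replicate 2, 1.82% of replicate 3 and at most 0.169% of any CP tumour. Pbsn, the androgen-dependent probasin gene of secretory prostate, had 388, 119 and 1394 CPM in P1 and 379, 1.07 and 0.608 in CP1. It had 0.0465 to 12.0 CPM in CP2. The epithelial markers Krt8, Krt18 and Cdh1 were detected in every tumour, at 2910 to 6523 CPM in P1, 54.9 to 253 in CP1 and 22.1 to 118 in CP2 for Krt8. For CP2 replicate 1 the title names CP1 and the other labels name CP2. It is treated as CP2 here, and no call on the 9 genes changed without it.

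In CP1 tumours 6 of the 9 genes were lower than in P1 and 0 were higher. In CP2 tumours 8 were lower than in P1 and 1, Kit, was higher. Between the CP lines, 4 genes were lower and 1 higher in CP2. A gene was called when its Benjamini-Hochberg adjusted p in edgeR's quasi-likelihood test, taken over all 17644 genes, was below 0.05. Among all genes tested, 22.4% were called lower in CP1 and 22.4% higher. In CP2, 28.4% were called lower than in P1 and 28.3% higher. In CP2 against CP1, 21.9% were lower and 21.3% higher. The median log2 difference of the 9 genes was -1.64 in CP1 and -4.96 in CP2, against medians of -0.01 and 0.0 over all genes. In CP2 against CP1 it was -0.69, against -0.01. Of the 9 genes, 6 lay wholly below the P1 tumours in CP1 and 0 wholly above, against 25.3% and 25.5% of all genes. In CP2 8 lay wholly below P1 and 1 above, against 29.7% and 30.5%. Against CP1, 4 lay wholly below and 1 above, against 25.6% and 26.7%. Both comparisons with P1 use the same P1 tumours, so the values of each are given side by side. In bulk tumours, fewer cells of a type and less RNA per cell cannot be told apart. The labels do not tie libraries to separate animals, so a p-value reflects how these libraries vary, and that variation can be technical.

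**Figure D1:**
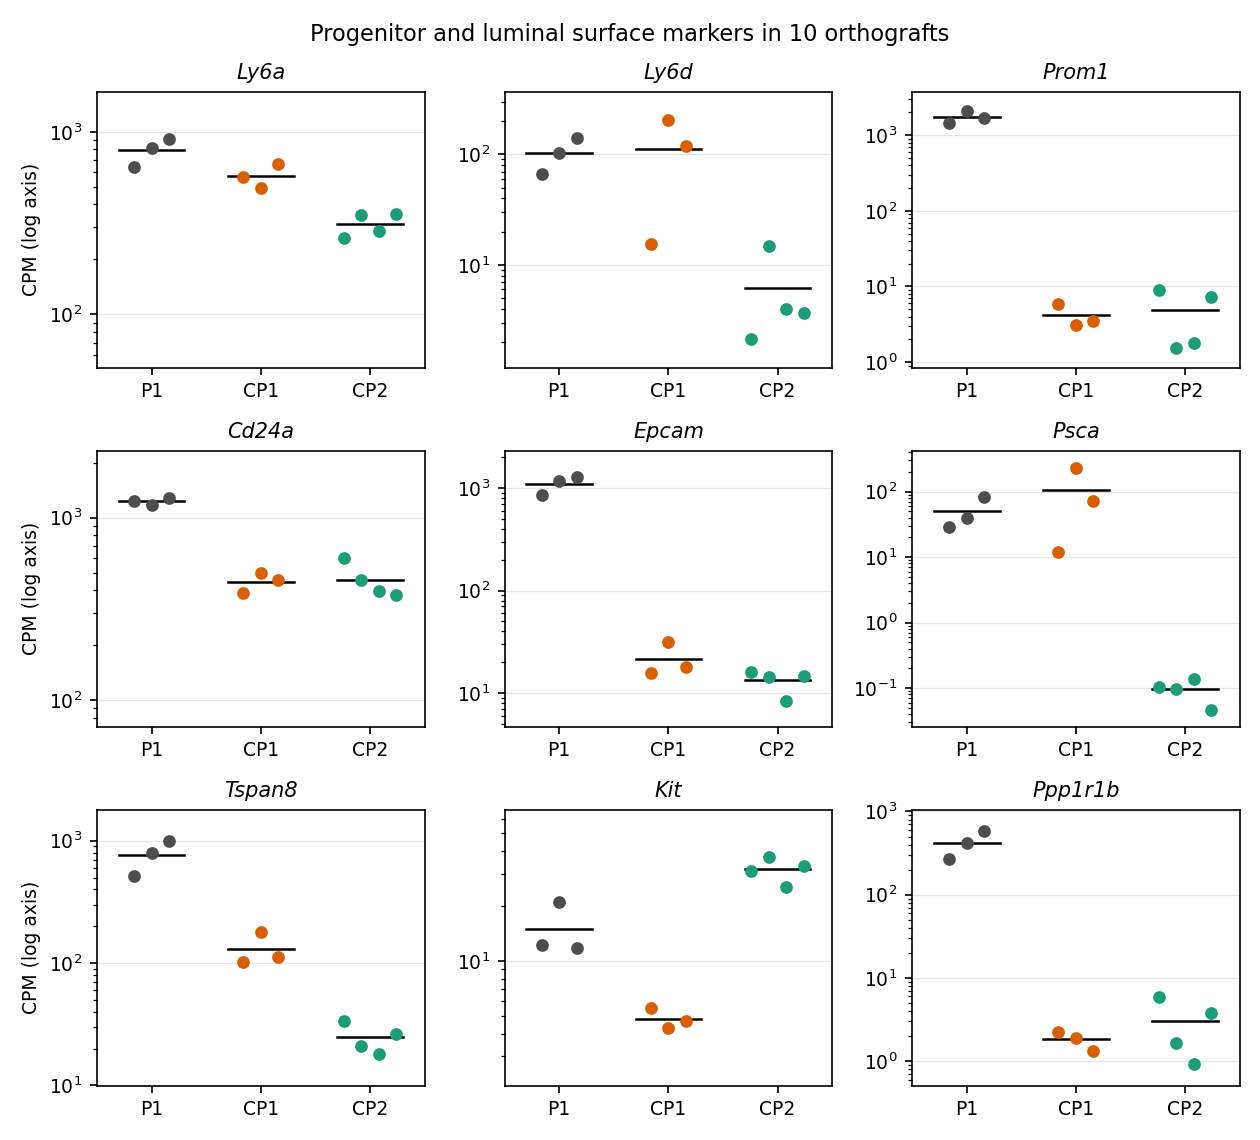
Level of each of the 9 genes in each tumour, in CPM on a log axis, with 1 point per tumour and a bar at the mean of the line. Prom1, Epcam and Ppp1r1b are at 265 CPM or more in P1 and at 31.4 or less in both CP lines, Psca is near 0.1 CPM in CP2, and Kit is highest in CP2.

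Prom1, Epcam, Ppp1r1b, Tspan8 and Cd24a were each lower in both CP lines, with no overlap between any CP tumour and any P1 tumour. Prom1 (ENSMUSG00000029086, GRCm38 chr5:43993620-44102032) encodes a pentaspan protein of apical membrane protrusions. It had 1436, 2072 and 1675 CPM in P1, 5.83, 3.08 and 3.52 in CP1, and 8.94, 1.52, 1.78 and 7.26 in CP2. The P1 tumours were thus far above every CP tumour, and the CP lines overlapped. Prom1 fell by 8.70 ± 0.77 on the log2 scale (SE, n = 3 and 3) in CP1 (edgeR adjusted p = 1.746e-05). In CP2 it fell by 8.47 ± 0.67 (n = 4 against 3, edgeR adjusted p = 5.824e-06). CP2 minus CP1 was 0.23 ± 0.56 (edgeR adjusted p = 0.764).

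Ppp1r1b (ENSMUSG00000061718, chr11:98348404-98357796) followed a like course. It had 265, 422 and 579 CPM in P1, 2.23, 1.92 and 1.34 in CP1, and 5.91, 1.67, 0.913 and 3.82 in CP2. All 3 P1 tumours stood far above the CP tumours, and the CP lines again overlapped. The log2 difference was -7.84 ± 0.66 in CP1 and -7.11 ± 0.56 in CP2 (edgeR adjusted p = 1.282e-05 and 5.595e-06). CP2 minus CP1 was 0.73 ± 0.55 (edgeR adjusted p = 0.309). In CP2, replicates 1 and 4 were the higher tumours for both Prom1 and Ppp1r1b, and they were also the CP2 tumours with the most seminal vesicle RNA, at 0.150% and 0.169% of counts against 0.00158% and 0.000359% in replicates 2 and 3. The part of this in the CP2 levels was not tested. Exons of Ppp1r1b overlap an opposite-strand gene, 1700003D09Rik, over 460 bases, and those of Prom1 overlap Gm16401 over 424 bases. These overlapping genes had 163 and 77 counts in all 10 tumours together. How reads in the shared bases were counted is not given, and their part in the levels was not tested.

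Epcam (ENSMUSG00000045394, chr17:87635979-87651129) had 862, 1165 and 1282 CPM in P1. It had 15.6, 31.4 and 18.0 CPM in CP1 and 16, 14.4, 8.44 and 14.8 in CP2. Every CP tumour retained some Epcam, and CP1 replicate 2 was the highest of them. The log2 difference was -5.67 ± 0.36 in CP1 and -6.36 ± 0.33 in CP2 (edgeR adjusted p = 2.687e-06 and 6.030e-07). CP2 minus CP1 was -0.69 ± 0.28 and not called (edgeR adjusted p = 0.0704). It was called with DESeq2 (-0.70, adjusted p = 0.0359) and in edgeR without CP1 replicate 1 (-0.88, adjusted p = 0.0384).

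Tspan8 (ENSMUSG00000034127, chr10:115816832-115849893) was the member of this set that separated all 3 lines. It had 518, 800 and 990 CPM in P1, 102, 178 and 111 in CP1, and 33.3, 21.1, 17.9 and 26.4 in CP2. No tumour of one line reached the range of another. Tspan8 fell by 2.56 ± 0.32 on the log2 scale in CP1 and dropped by 4.96 ± 0.32 in CP2 (edgeR adjusted p = 1.335e-04 and 1.592e-06). CP2 was lower than CP1, at -2.40 ± 0.29 (edgeR adjusted p = 1.629e-04).

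Cd24a (ENSMUSG00000047139, chr10:43578284-43584265) changed least among these 5 genes. It had 1240, 1179 and 1288 CPM in P1, 387, 496 and 453 in CP1, and 603, 453, 396 and 378 in CP2. The P1 tumours lay within a factor of 1.09 of each other, well above the CP tumours. The log2 difference was -1.47 ± 0.18 in CP1 and -1.43 ± 0.16 in CP2 (edgeR adjusted p = 1.197e-04 and 5.589e-05). CP2 minus CP1 was 0.04 ± 0.16 (edgeR adjusted p = 0.868). CD24 is also made by B cells and red cell precursors. Summed CPM of 8 B cell markers ranged from 8.80 to 19.2 in P1, 1.70 to 6.96 in CP1 and 4.94 to 9.73 in CP2, and of 8 erythroid markers from 15.4 to 47.5, 2.67 to 17.6 and 3.03 to 23.1.

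Sequence before a RefSeq start site is shown for 3 members. For Tspan8 this stretch lies within the gene as GENCODE annotates it, after the annotated start at chr10:115816832. Epcam and Tspan8 fell in both CP lines, whereas Kit fell in CP1 and rose in CP2. The windows come from RefSeq (GRCm38.p6) and end at a RefSeq start. Printed is the longest stretch of each window outside bases that GENCODE annotates as exon of the same gene. In the windows of Epcam, Tspan8 and Kit, 0, 13 and 71 bases were such exon bases. The Kit stretch therefore stops at the annotated gene start, short of the RefSeq start. Of the 9 members, Prom1, Kit, Tspan8 and Epcam matched an entry, and the window before the first Prom1 start lies wholly within an annotated exon and is not printed. Capitals mark a GC box.
Epcam, chr17:87635729-87635978, plus strand: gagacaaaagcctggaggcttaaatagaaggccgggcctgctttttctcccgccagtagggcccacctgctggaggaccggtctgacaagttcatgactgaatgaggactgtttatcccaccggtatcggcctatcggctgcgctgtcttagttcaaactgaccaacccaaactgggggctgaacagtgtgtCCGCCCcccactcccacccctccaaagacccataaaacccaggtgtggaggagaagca
Tspan8, chr10:115817034-115817270, plus strand: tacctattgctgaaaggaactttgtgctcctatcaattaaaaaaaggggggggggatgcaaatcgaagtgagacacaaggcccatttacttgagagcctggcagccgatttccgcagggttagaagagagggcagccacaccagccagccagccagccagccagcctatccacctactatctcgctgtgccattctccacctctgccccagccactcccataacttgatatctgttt
Kit, chr5:75574737-75574915, plus strand: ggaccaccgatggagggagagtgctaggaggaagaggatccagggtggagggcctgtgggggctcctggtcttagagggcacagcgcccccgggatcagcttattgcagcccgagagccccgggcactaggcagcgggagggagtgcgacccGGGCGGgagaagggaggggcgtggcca
Searched on both strands were CTTTGAT, the core bound by TCF and LEF factors, GGGCGG, the GC box, TATAAA, the TATA box, and CCAAT. Epcam and Kit each held 1 GC box and no other of these motifs, Tspan8 held none of the 4, and no motifs overlapped. Over the same stretch of 32851 RefSeq windows, a GC box was present in 32.7% for the Epcam stretch, 30.9% for that of Tspan8 and 20.9% for that of Kit. The core CTTTGAT was present in 3.21%, 3.07% and 2.37% and TATAAA in 12.4%, 12.0% and 8.34%, while CCAAT was in 33.8%, 32.8% and 24.8%. The GC content was 56.4% for Epcam, 52.3% for Tspan8 and 69.3% for Kit. These matches are a description of letters in these windows.

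**Figure D2:**
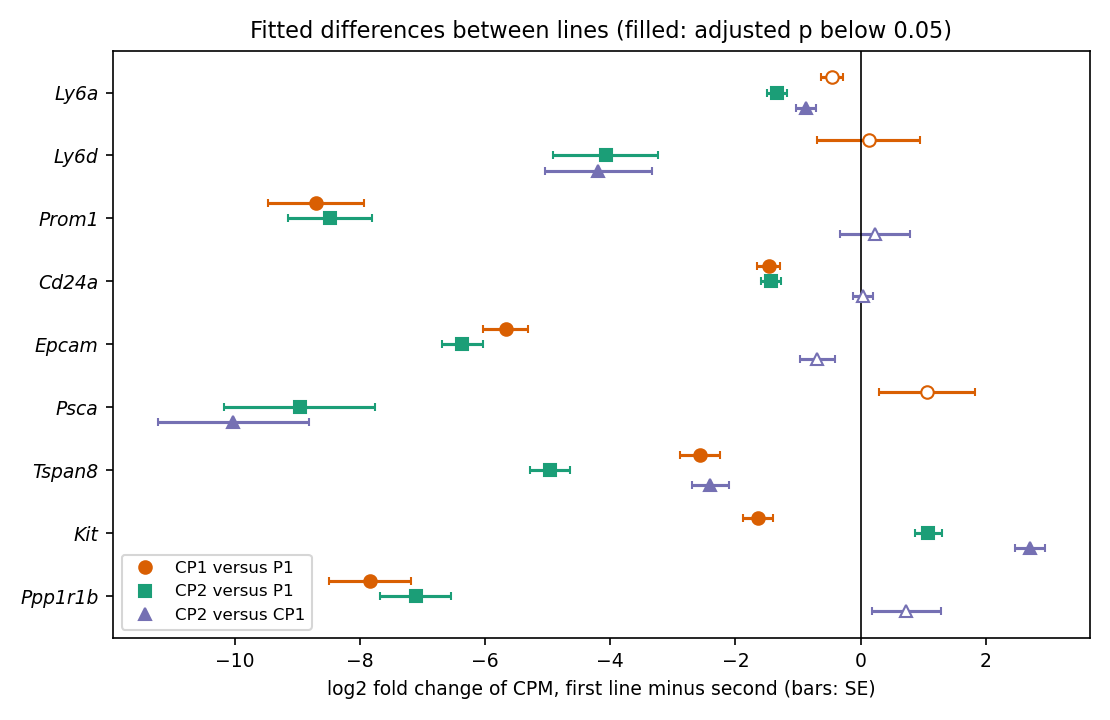
Fitted log2 fold change of each gene (points) with its SE (bars) for CP1 versus P1, CP2 versus P1 and CP2 versus CP1, filled where the edgeR adjusted p was below 0.05. Prom1 and Ppp1r1b lie between -7.11 and -8.70 in both comparisons with P1, whereas Ly6d and Psca are called lower in CP2 and not called in CP1.

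The 3 members of the Ly6 family, Psca, Ly6d and Ly6a, lie within 0.3 Mb on chromosome 15, and all 3 were lower in CP2 than in P1 and than in CP1, without overlap between tumours. None of the 3 was called in CP1 against P1. Psca (ENSMUSG00000022598, chr15:74714839-74717069), prostate stem cell antigen, had 28.8, 38.8 and 83.0 CPM in P1 and 12.1, 231 and 71.2 in CP1. In CP2 it had 2, 2, 3 and 1 counts in the 4 libraries, or 0.103, 0.0982, 0.137 and 0.0465 CPM. The CP1 tumours spanned a 19.08-fold range, and the CP2 tumours were all at or below the level that 3 counts represent. Psca fell by 8.96 ± 1.21 on the log2 scale in CP2 against P1 and dropped by 10.02 ± 1.21 against CP1 (edgeR adjusted p = 1.565e-04 and 1.672e-04). With 4452 counts summed over P1 and 8 over CP2, the ratio of scaled counts was 504 (95% exact binomial interval 255 to 1168, counting error only). CP1 minus P1 was 1.06 ± 0.77 (edgeR adjusted p = 0.294).

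Ly6d (ENSMUSG00000034634, chr15:74762056-74763620) had 66.9, 103 and 141 CPM in P1, 15.5, 204 and 119 in CP1, and 2.11, 14.9, 4.02 and 3.68 in CP2. CP1 replicate 1 and CP2 replicate 2 came close to each other at 15.5 and 14.9 CPM, while the other tumours of these lines lay well apart. Ly6d fell by 4.07 ± 0.84 on the log2 scale in CP2 against P1 (edgeR adjusted p = 0.00233). CP2 was also lower than CP1, at -4.19 ± 0.85 (edgeR adjusted p = 0.00314). CP1 minus P1 was 0.13 ± 0.82 (edgeR adjusted p = 0.916).

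The order of the CP1 tumours for Psca and Ly6d was shared by several bladder lining, basal and general epithelial genes, but not by all. Upk3a, a uroplakin of urothelium, had 8.16, 249 and 99.1 CPM in CP1 replicates 1, 2 and 3, and Upk1b had 17.2, 385 and 145. The basal keratin gene Krt5 had 20.0, 353 and 243 CPM in the same tumours. Krt8 had 54.9, 253 and 172 CPM and Cdh1, which encodes the adhesion protein E-cadherin, had 25.1, 102 and 61.2. CP1 replicate 2 was highest and replicate 1 lowest for all 7 of these genes. Gata3, a factor in the urothelium list, had 94.4, 118 and 126 CPM and did not follow this order. Neither did the epithelial keratin gene Krt18, at 295, 370 and 449 CPM. The basal genes Krt14, Col17a1, Lamb3, Itga6 and Dst were likewise highest in CP1 replicate 3. Upk1b in CP1 replicate 1 lay within the P1 range of 14.1 to 28.9 CPM, whereas Upk3a there was above the P1 maximum of 0.256. Of 9 urothelium markers, 7 were higher and 1 lower in CP1 than in P1, and 1 higher and 3 lower in CP2 than in P1. In CP2 against CP1, 0 were higher and 7 lower. The shares called were 88.9%, 44.4% and 77.8%, against 44.8%, 56.7% and 43.3% of all genes. The summed level of the 9 markers was 158 to 1516 CPM in CP1, 297 to 510 in P1 and 114 to 142 in CP2. In CP2, Snx31 had 0 counts in 3 of the 4 tumours and Upk3a in replicate 4. Their part in the Psca and Ly6d levels was not tested. Without CP1 replicates 2 and 3, the log2 difference of CP1 from P1 turned to -2.05 for Psca, called lower (edgeR adjusted p = 0.0274), and to -2.74 for Ly6d, not called (edgeR adjusted p = 0.0769). The lone CP1 tumour was then assumed to vary like the other lines. In that fit Psca in CP2 was still lower than in CP1, at -6.91 (edgeR adjusted p = 3.145e-04), but the Ly6d difference shrank to -1.33 and was not called (edgeR adjusted p = 0.276). Without CP1 replicate 1, Psca was called higher in CP1 than in P1 (log2 1.58, edgeR adjusted p = 0.0295), and without CP1 replicate 2 the difference was -0.27 (edgeR adjusted p = 0.770).

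**Figure D3:**
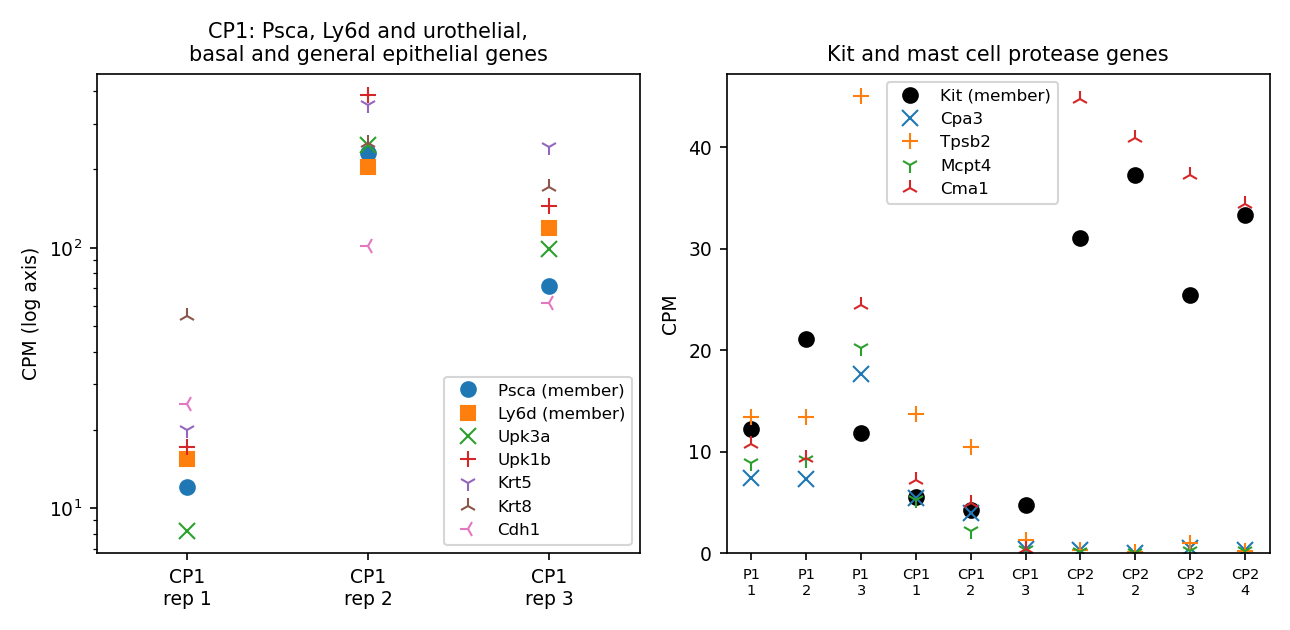
Left: CPM (log axis) of Psca, Ly6d, the uroplakin genes Upk3a and Upk1b, the basal keratin gene Krt5 and the epithelial genes Krt8 and Cdh1 in the 3 CP1 tumours. Right: CPM of Kit and of the mast cell protease genes Cpa3, Tpsb2, Mcpt4 and Cma1 in all 10 tumours. In CP1 all 7 genes are lowest in replicate 1 and highest in replicate 2, and in CP2 Kit stands at 25.4 to 37.3 CPM, Cma1 at 34.4 to 44.7 and the other 3 protease genes at 0.958 or less.

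Ly6a (ENSMUSG00000075602, chr15:74994877-74998031) was abundant in every tumour. It had 639, 817 and 918 CPM in P1, 565, 495 and 666 in CP1, and 262, 350, 286 and 355 in CP2. P1 and CP1 overlapped, at 639 and 666 CPM, and every CP2 tumour was below both. Ly6a fell by 1.34 ± 0.16 on the log2 scale in CP2 against P1 (edgeR adjusted p = 8.952e-05). CP2 was lower than CP1, at -0.88 ± 0.16 (edgeR adjusted p = 0.00209). CP1 minus P1 was -0.46 ± 0.18 and not called (edgeR adjusted p = 0.0582). It was called with DESeq2 (-0.47, adjusted p = 0.0281) and in edgeR without P1 replicate 1 (-0.61, adjusted p = 0.0190), without CP1 replicate 3 (-0.57, adjusted p = 0.0441) and without P1 replicates 1 and 2 (-0.70, adjusted p = 0.0329).

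Ly6a is made by several host cell types and resembles its neighbours in sequence. Of the 1297 distinct words of 50 bases in its annotated transcripts 246 also occur in transcripts of other genes, 195 of them in Ly6c1. Ly6c1 had 42.5 to 71.1 CPM in P1, 287 to 358 in CP1 and 59.8 to 80.9 in CP2, so Ly6a counts in CP1 are uncertain to the extent that counting split such reads. Psca, Ly6d, Epcam, Tspan8 and Kit shared no such word with another gene, and Cd24a shared 2.75%. The summed level of 12 endothelium markers was 326 to 593 CPM in P1, 360 to 426 in CP1 and 234 to 393 in CP2. Of these 12 genes 0 were called in CP1 against P1 and 6 were lower in CP2 against P1 and against CP1, with Pecam1 at 47.9 to 79.7, 48.5 to 62.2 and 44.3 to 63.6 CPM. Of 12 lymphocyte genes tested, 10 were lower in CP1 than in P1, and in CP2 3 were higher and 4 lower. Against CP1, 9 were higher in CP2. For lymphocyte genes the shares called were 83.3%, 58.3% and 75.0%, against the same shares of all genes. The summed level of the whole list of 13 was 31.2 to 47.3 CPM in P1, 3.36 to 4.58 in CP1 and 90.2 to 133 in CP2. Most of the CP2 sum was 1 gene, Gzmb, with a mean of 90.2 CPM of a mean sum of 110. In P1 Gzmb had 19.1 CPM of a mean sum of 37.3. The higher sum in CP2 than in P1 thus mainly reflects Gzmb and is no measure of lymphocyte number. The part of these cells in the Ly6a level was not tested.

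Most neighbours of the 3 members were also lower in CP2 than in CP1, but fewer were lower in CP2 than in P1. From Mroh4 to Ly6g, chromosome 15 holds 23 protein-coding genes around them, of which 18 were tested. Leaving out Psca, Ly6d and Ly6a, 6 of 15 were higher and 1 lower in CP1 than in P1, and 2 were higher and 5 lower in CP2 than in P1. In CP2 against CP1, 1 was higher and 11 of 15 were lower. Lower calls made up 21.9% of all genes in that comparison, 28.4% in CP2 against P1 and 22.4% in CP1 against P1. For higher calls these shares were 21.3%, 28.3% and 22.4%. Among the neighbours lower in CP2 than in CP1, Arc, Them6, Lynx1, Cyp11b1 and Ly6c1 were higher in CP1 than in P1. None of these was called lower in CP2 than in P1. Gml, Ly6g, Ly6i and Ly6k were near the floor in CP2, with means of 0.0237, 0.0357, 0.194 and 0.352 CPM. Lypd2 encodes another small Ly6-type protein and lies between Psca and Ly6d. It rose in CP2, where it had 16.6 ± 1.74 CPM (SD, n = 4) against 0.121 ± 0.0263 in P1 (n = 3). Its log2 difference was 7.06 ± 0.46 (edgeR adjusted p = 1.942e-06). Ly6e, the most abundant Ly6 gene apart from the members, had 1256 ± 379 CPM in P1, 984 ± 201 in CP1 and 1000 ± 116 in CP2 and was not called in any comparison. In a list of 28 further Ly6 family genes, of which 23 were tested, 5 were higher and 5 lower in CP1 than in P1, with a median log2 difference of 0.63. In CP2 1 was higher and 11 lower than in P1 (median -1.28), and 2 were higher and 12 lower than in CP1 (median -1.03). The shares called were 43.5%, 52.2% and 60.9%, against 44.8%, 56.7% and 43.3% of all genes. Without CP1 replicates 2 and 3, 1 was higher and 7 lower in CP2 than in CP1. Ly6f, another gene of this list, was at 62.8 ± 40.8 CPM in CP1 and at 0.502 ± 0.142 and 0.194 ± 0.0782 in P1 and CP2.

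**Figure D4:**
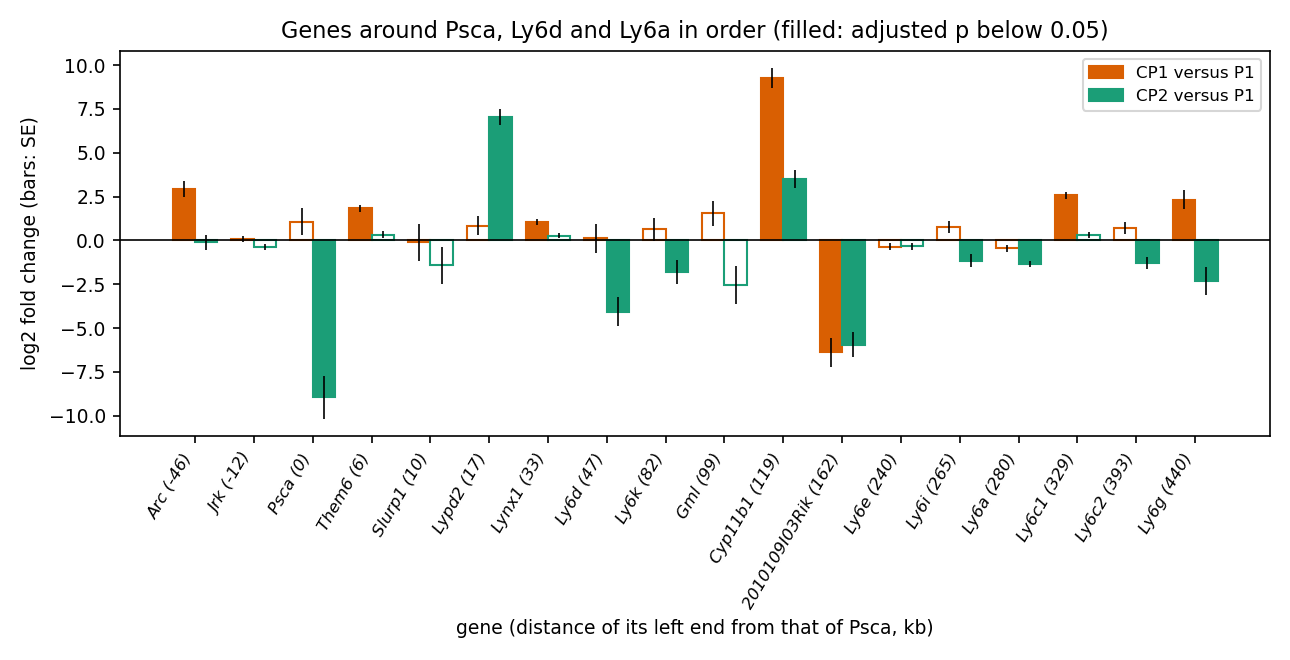
Log2 fold change against P1 of the 18 tested genes around Psca, Ly6d and Ly6a, in chromosomal order, with SE as bars and the distance from Psca in kb in brackets. Filled columns passed an edgeR adjusted p of 0.05. Psca and Ly6d are low in CP2, while Lypd2, which lies between them, is high.

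Kit was the member with opposite directions in the CP lines. Kit (ENSMUSG00000005672, chr5:75574916-75656722) had 12.2, 21.1 and 11.8 CPM in P1, 5.51, 4.29 and 4.70 in CP1, and 31.0, 37.3, 25.4 and 33.3 in CP2. The 3 lines did not overlap. Kit fell by 1.64 ± 0.24 on the log2 scale in CP1 (edgeR adjusted p = 4.066e-04) and rose by 1.08 ± 0.22 in CP2 (edgeR adjusted p = 0.00230). CP2 exceeded CP1 by 2.71 ± 0.24 (edgeR adjusted p = 2.975e-05).

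Kit is also the defining receptor of mast cells, whose markers moved in both directions in CP2. Cpa3, mast cell carboxypeptidase, had 7.27 to 17.7 CPM in P1, 0.405 to 5.48 in CP1 and 0.0 to 0.548 in CP2. Mcpt4 and Tpsb2, mast cell proteases, had at most 0.233 and 0.958 CPM in CP2. Tpsab1, another tryptase gene, had 29.5 to 116 CPM in P1, 3.61 to 31.0 in CP1 and 0.442 to 2.42 in CP2. Cma1 and Il1rl1 were instead highest in CP2, as Kit was. Of 11 mast cell genes tested, 2 were lower in CP1 than in P1, and in CP2 1 was higher and 7 were lower. Against CP1, 2 were higher and 6 lower in CP2. The shares called were 18.2%, 72.7% and 72.7%, against 44.8%, 56.7% and 43.3% over the whole series. The summed level of all 12 was 182 to 435 CPM in P1, 184 to 203 in CP1 and 316 to 341 in CP2, of which Gata2, a factor made by many cells, and Il1rl1 made up much. Il1rl1, the receptor for interleukin-33, was higher in CP2, at 73.5 to 97.4 CPM against 4.34 to 20.9 in P1 (log2 3.04 ± 0.54, edgeR adjusted p = 8.748e-04). Cma1, a mast cell chymase gene, had 9.36 to 24.4 CPM in P1, 0.446 to 7.24 in CP1 and 34.4 to 44.7 in CP2. It was higher in CP2 than in CP1 (log2 3.22 ± 0.68, edgeR adjusted p = 0.00400) and not called against P1 (1.40 ± 0.62, edgeR adjusted p = 0.0762). Il1rl1 was also higher in CP2 than in CP1 (log2 4.17 ± 0.58, edgeR adjusted p = 3.716e-04). The part of mast cells in the Kit level was not tested. The melanocyte genes Dct, Tyr and Mlana, from another cell type that uses Kit, were near 0 in all tumours. Kitl, which encodes the ligand of Kit, had 81.8 to 117 CPM in P1, 350 to 490 in CP1 and 115 to 216 in CP2, and it rose by 2.18 ± 0.24 in CP1 and by 0.72 ± 0.22 in CP2 (edgeR adjusted p = 6.180e-05 and 0.0177). Ligand and receptor thus moved in opposite directions in CP1.

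Per kilobase of merged exons, which allows levels of different genes to be compared, Ly6a ranked first in each line, at 657 ± 118, 477 ± 71.3 and 260 ± 38.5 CPM per kb in P1, CP1 and CP2 (SD, n = 3, 3 and 4). In P1 it was followed by Epcam at 502 ± 98.9, Cd24a at 479 ± 21.2 and Tspan8 at 452 ± 139 CPM per kb, which did not differ beyond their spread. Prom1 stood at 241 ± 44.8, Ppp1r1b at 144 ± 53.6, Ly6d at 139 ± 49.5, Psca at 58.4 ± 33.6 and Kit at 1.69 ± 0.591 CPM per kb. In CP1 the order after Ly6a was Cd24a (173 ± 21.2), Ly6d (152 ± 127), Psca (122 ± 132) and Tspan8 (76.6 ± 24.5 CPM per kb). Epcam followed at 9.87 ± 3.88, and Ppp1r1b, Prom1 and Kit were at 0.624 ± 0.154, 0.578 ± 0.206 and 0.542 ± 0.0700 CPM per kb, levels that overlapped. In CP2 Cd24a was at 177 ± 39.6 CPM per kb, Tspan8 at 14.5 ± 3.95, Ly6d at 8.31 ± 7.91 and Epcam at 6.12 ± 1.55. Kit, last in P1, came sixth there at 3.56 ± 0.557 CPM per kb, above Ppp1r1b, Prom1 and Psca. By these means Ly6a and Cd24a were the most abundant members per length in both CP lines, whereas Epcam ranked above Cd24a in P1. In CP1 Cd24a, Ly6d and Psca did not differ beyond their spread, nor did Epcam and Cd24a in P1. Lengths of the longest transcript put Cd24a (680 ± 30.1) and Tspan8 (557 ± 172 CPM per kb) above Epcam (541 ± 106) in P1. In CP1 they put Kit (0.922 ± 0.119) above Ppp1r1b (0.913 ± 0.226 CPM per kb).

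Within a line, tumours differed in level across several members at once. P1 replicate 1 was the lowest P1 tumour for 7 of the 9 genes and replicate 3 the highest for 7. P1 replicate 1 also had the largest share of seminal vesicle transcripts and replicate 3 the smallest, and the part of this in the order was not tested. With seminal vesicle genes left out of library sizes, no call on the 9 genes changed. In CP1, replicate 1 was lowest for 5 members, and in CP2, replicate 1 was highest for 5.

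Because the keratin gene Krt8, a structural protein of luminal cells, also fell, members were set against it in each tumour, a description chosen after the values were seen. Its log2 difference was -4.83 ± 0.80 in CP1 and -6.47 ± 0.76 in CP2 (edgeR adjusted p = 7.973e-04 and 6.649e-05). Epcam had 19.7 to 29.6 reads per 100 Krt8 reads in P1, 10.5 to 28.4 in CP1 and 13.6 to 55.5 in CP2, so the lines overlapped. Prom1 had 25.7 to 49.4 in P1, 1.22 to 10.6 in CP1 and 3.84 to 27.2 in CP2, so it was lower per Krt8 read in every CP1 tumour. Psca had 0.915 to 1.27 in P1, 22.1 to 91.3 in CP1 and 0.0874 to 0.620 in CP2, with no overlap. Tspan8 was higher per Krt8 read in every CP tumour, at 64.9 to 185 in CP1 and 28.3 to 99.1 in CP2 against 15.2 to 18.9 in P1. Kit had 0.181 to 0.498 reads per 100 Krt8 reads in P1, 1.69 to 10.0 in CP1 and 26.4 to 125 in CP2. Ly6a had 14.1 to 21.9 in P1, 195 to 1028 in CP1 and 223 to 1330 in CP2. For Cd24a these were 19.7 to 42.6, 196 to 705 and 513 to 1792, so both were higher in every CP tumour. Ly6d had 2.16 to 2.44, 28.2 to 80.7 and 1.79 to 37.6. Ppp1r1b had 8.88 to 9.96, 0.756 to 4.05 and 4.13 to 14.3, and for both genes CP2 overlapped P1. The ratio depends on the gene it is set against. Per 100 reads of Krt8, Krt18 and Cdh1 together, Epcam had 11.3 to 15.2 in P1, 2.64 to 4.33 in CP1 and 7.23 to 21.7 in CP2, so CP1 no longer overlapped P1. Prom1 had 14.8 to 27.1 in P1, 0.426 to 1.56 in CP1 and 1.69 to 10.6 in CP2 on that scale, so neither CP line overlapped P1. Psca, Tspan8, Kit, Ly6a, Cd24a, Ly6d and Ppp1r1b kept the order or overlap of their ranges against P1 on both scales.

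Other markers of luminal progenitor cells mostly fell as well. In a list of 24 genes that holds none of the 9, 2 were higher and 15 lower in CP1 than in P1 (70.8% called, against 44.8% of all genes), with a median log2 difference of -1.59. In CP2 2 were higher and 17 lower than in P1 (79.2%, against 56.7%), with a median of -3.43. In CP2 against CP1 4 were higher and 12 lower (66.7%, against 43.3%), or 3 and 6 without CP1 replicates 2 and 3. Clu, which encodes the secreted chaperone clusterin and marks proximal luminal cells, fell in CP1, with 130 ± 65.5 CPM against 9368 ± 1818 in P1 (log2 -6.17 ± 0.56, edgeR adjusted p = 1.926e-05). It was higher in CP2 than in CP1, at 655 ± 294 CPM (log2 2.33 ± 0.45, edgeR adjusted p = 0.00254). Wfdc2, a secreted protease inhibitor gene, fell from 449 ± 171 to 1.27 ± 1.44 CPM in CP2 (log2 -8.49 ± 1.01, edgeR adjusted p = 7.200e-05). Aldh1a1, a retinaldehyde dehydrogenase used as a progenitor marker, rose in both CP lines, with 262 ± 156 CPM in CP1 and 614 ± 170 in CP2 against 41.6 ± 14.2 in P1 (log2 2.65 ± 0.43 and 3.88 ± 0.44, edgeR adjusted p = 6.718e-04 and 5.309e-05).

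Secretory luminal and basal genes gave mixed counts. Of 17 secretory genes tested, CP1 had 2 higher and 4 lower calls against P1, with 3 and 6 in CP2 than in P1, and 3 and 3 in CP2 than in CP1. The shares called were 35.3%, 52.9% and 35.3%, against 44.8%, 56.7% and 43.3% of all genes. Hoxb13, a homeobox gene of prostate identity, was at 38.9 to 72.2 CPM in P1, 54.5 to 59.5 in CP1 and 44.5 to 56.1 in CP2. Of 12 basal genes, 5 were higher and 5 lower in CP1 than in P1, 2 and 6 in CP2 than in P1, and 3 and 5 in CP2 than in CP1. For basal genes the shares called were 83.3%, 66.7% and 66.7%, against the same 44.8%, 56.7% and 43.3%. Krt15 and Krt5, keratins of basal cells, rose in CP1 (log2 4.10 ± 0.88 and 3.65 ± 0.90, edgeR adjusted p = 0.00366 and 0.00804). Col17a1, Trp63 and Dst also rose there, with log2 differences of 2.36, 2.19 and 1.48 (edgeR adjusted p = 0.0319, 0.0240 and 2.227e-04). In CP1 replicate 1, however, Krt5, Col17a1 and Trp63 had 20.0, 5.05 and 4.66 CPM. These values lay within the P1 ranges of 9.89 to 28.7, 4.09 to 8.78 and 2.41 to 8.75. Krt15 had 32.3 CPM in that tumour, against at most 26.6 in P1. Dst was above P1 in every CP1 tumour, at 293 to 344 CPM against 83.8 to 150. Krt14, another basal keratin, fell in both CP lines, at log2 -4.02 ± 0.41 and -1.25 ± 0.34 (edgeR adjusted p = 4.166e-05 and 0.0101). The basal genes Dsg3, Lamb3, Itgb4 and Krt17 also fell in CP1, with log2 differences of -4.49, -3.89, -3.55 and -2.29 from P1.

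Paralogs and partners of the members did not share a single direction. Of 38 such genes, 9 were higher and 13 lower in CP1 than in P1 (median log2 0.04), 10 and 17 in CP2 than in P1 (-0.31), and 6 and 18 in CP2 than in CP1 (-0.26). The shares called were 57.9%, 71.1% and 63.2%, against 44.8%, 56.7% and 43.3% of all genes. Prom2, the paralog of Prom1, had 60.4, 61.3 and 10.8 CPM in P1, 5.44, 47.7 and 24.5 in CP1 and 1.13 to 2.11 in CP2. It was not called in CP1 against P1 (log2 -0.77 ± 0.72, edgeR adjusted p = 0.418) and was lower in CP2 (-4.86 ± 0.79, edgeR adjusted p = 5.085e-04). Among tetraspanins, Tspan12 rose in CP2, with 337 ± 12.9 CPM against 34.9 ± 4.65 in P1 (log2 3.27 ± 0.17, edgeR adjusted p = 6.300e-07), and Tspan33 fell from 33.5 ± 8.23 to 1.13 ± 0.125 in CP1 (-4.88 ± 0.28, edgeR adjusted p = 1.632e-06). Cldn7, a claudin that binds EpCAM, fell from 209 ± 63.7 to 4.72 ± 0.504 CPM in CP2 (log2 -5.47 ± 0.37, edgeR adjusted p = 2.370e-06). Tetraspanin genes thus moved in both directions around Tspan8.

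Prom1 and Tspan8 are also abundant in intestinal epithelium, and intestinal genes marked the P1 tumours. All 11 intestinal genes tested were lower in CP1 and in CP2 than in P1, and 2 were lower in CP2 than in CP1. The summed level of the list of 12 was 1565 to 2829 CPM in P1, 23.9 to 51.8 in CP1 and 8.24 to 26.3 in CP2. Cdx1 had 0 counts in every CP tumour, which allows up to 0.154 CPM in the shallowest, and Cdx2, an intestinal homeobox factor, had 13.0 to 22.1 CPM in P1 and at most 0.257 in a CP tumour. Lgals4, a galectin of gut epithelium, had 714 to 1598 CPM in P1 and 2.09 to 8.12 in the CP tumours. The part of these cells or this program in the levels of Prom1 and Tspan8 was not tested. Of 10 seminal vesicle genes, 9 were lower in each CP line than in P1, and 1 was higher in CP2 than in CP1. For this list the shares called were 90.0%, 90.0% and 10.0%, against the same shares of all genes.

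The tested genes with profiles most like each member were found by the root mean square difference of log2(CPM + 0.5) over the 10 tumours, after removal of each gene's own mean. For Ly6a the nearest was Dsp, the desmosomal gene desmoplakin, at 0.13. For Cd24a it was Dnmbp, at 0.13, followed by Sh3bgrl2 at 0.14. Epcam was nearest to Slc44a4, a choline transporter gene, at 0.23, and to Prr15l at 0.24. Prom1 was nearest to Cldn2, the claudin of leaky epithelia, at 0.57, and Ppp1r1b to Pklr, the liver-type pyruvate kinase gene, and Myo15b, both at 0.52. Tspan8 was nearest to Slc22a18 at 0.31, and Kit to Rab30, a Golgi GTPase gene, at 0.17. Ly6d was nearest to Sprr2a3 at 0.52 and Sprr1a at 0.55, genes of the squamous cell envelope. The nearest gene to Psca, Gsta4, differed by 1.13, so no tested gene followed Psca as closely as the nearest genes followed the other 8. Between members, Ly6a and Cd24a differed least, at 0.54, followed by Ppp1r1b and Prom1 at 0.75, and Psca and Kit differed most, at 4.28.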

How the data were processed

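Deposited values are whole-number read counts per Ensembl gene, 1 file per tumour, as the authors made them and without normalisation. The tools, per the submitters' processing notes, were HTSeq 0.6.0, TopHat2 2.1.0, DESeq2 1.14.1, Bowtie2 2.2.6.0, FastQC 0.11.4 and R 3.2.3, with build GRCm38.p3. Their order, annotation and strand setting are not given in the sources used here. Genes overlapping on opposite strands are therefore uncertain. Of 47069 identifiers, 46574 matched GENCODE M21 (GRCm38). Totals ran from 18800912 to 37180721 counts.

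Counts of all 10 tumours entered 1 quasi-likelihood fit in edgeR 4.0.16 (R 4.3.3), with TMM factors and filterByExpr (minimum count 10, total 15), which left 17644 genes. Each SE was obtained as |log2 fold change| over the root of the F statistic. The procedure was tested on simulated data. Replicates were numbered in accession order. Alternatives were DESeq2 1.42.0, other scaling, no filter, 2 lines per fit and tumours left out.

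The 9 members and 16 marker lists were chosen with earlier results of these data known. All members are named. Per list and comparison the rule took up to 2 called genes in each direction with the largest change and a mean of at least 5 CPM, and the most abundant gene not called. The text names fewer. It adds Krt18, Cdh1, Cdx1, Cdx2, Upk1b, Cpa3, Mcpt4, Trp63, Dsg3, Krt17, Dct, Tyr and Mlana, chosen after their values were seen or as defining markers. Also added were Arc, Them6, Lynx1, Cyp11b1, Gml, Ly6g, Ly6i and Ly6k, chosen after their values were seen. The 3 genes nearest in profile were found per member. Part of the donors' genotype and some list genes are not reported here.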

Additional observations from a re-analysis of the deposited data

Results flagged for a closer look

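Among 103 members and list genes with at least 10 counts in a CP2 library, 9 had 1 CP2 tumour far from the other 3, with a gap above Dixon's 95% critical value. Chance flags about 1 in 20 such groups. Ly6d was the only member: replicate 2 had 14.9 CPM against 2.11 to 4.02 in the others (gap 0.851 of the range). Replicate 2 was also alone for Col17a1, a hemidesmosome collagen of basal cells, at 3.14 CPM (0.977). Replicate 1 was high for Fkbp5 at 313 CPM (0.847) and Krt20 at 5.60 CPM (0.902). Replicate 4 was high for Des at 97.0 CPM (0.863), Sva at 9.59 CPM (0.995), Svs3b at 14.2 CPM (0.974) and Tspan33 at 2.28 CPM (0.859), and low for Cd44 at 678 CPM (0.881).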

How the results depend on the processing

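All 9 calls of members in CP2 against P1 held under the 19 alternatives, as did the 6 lower calls in CP1 against P1 under 17. Leaving out 1 tumour gave 0 to 1 members called higher in CP1 than in P1. Among members, directions that turned belonged to differences not called: Ly6d in CP1 against P1 (-0.62 to 0.63 with 1 tumour left out, -0.34 without P1 replicates 1 and 2, -2.74 without CP1 replicates 2 and 3) and Psca (-0.27 to 1.62 and, without CP1 replicates 2 and 3, -2.05, then called). In CP2 against CP1 they were Cd24a (-0.12 to 0.12, and -0.00 with no filter) and Prom1 (-0.23 to 0.56, and -0.26 without CP1 replicates 2 and 3). Tmprss2, a list gene called lower in CP2 than in CP1 (-1.61), turned to 0.76 without CP1 replicates 2 and 3, where 4161 genes were called in place of 7635. These fits hold fewer samples, and a line left with 1 tumour was assumed to vary like the others. For the other changes the cause was not tested. P1 and CP2 titles share the numbers 19 and 21, and deviations of such tumours from their line means correlated at -0.173 and -0.062. With so few tumours per line, these values cannot settle whether the number marks a pair. With that number as a replicate block over 4 tumours 4611 genes were called, and 5298 with no replicate block, against 9999 in all 10. All 9 members kept their calls under the block. Of the 27 nearest genes, 13 were also nearest with a pseudocount of 2. CP2 libraries are the shallowest, which limits precision for Psca there.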

Other observations

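Stromal, leukocyte, erythroid and B cell genes were counted apart from the comparisons above. Of all genes, 44.8% were called in CP1 against P1, 56.7% in CP2 against P1 and 43.3% in CP2 against CP1. Of 10 fibroblast markers, 3 were higher and 1 lower in CP1 than in P1, and 5 and 4 in CP2 than in P1. In CP2 against CP1, 3 were higher and 4 lower. For these markers the shares called were 40.0%, 90.0% and 70.0%. Their summed level was 5162 to 9893 CPM in P1, 15284 to 23751 in CP1 and 8218 to 10123 in CP2. Of 9 smooth muscle and interstitial cell genes, 2 were higher and 1 lower in CP1 than in P1. In CP2 1 was higher and 7 lower than in P1, and 0 higher and 7 lower than in CP1. Here the shares called were 33.3%, 88.9% and 77.8%. Of 11 leukocyte and myeloid genes 0 were higher and 1 lower in each CP line than in P1. In CP2 1 was higher and 3 lower than in CP1. These are shares of 9.1%, 9.1% and 36.4%, below those of all genes. Of the 5 erythroid genes tested by edgeR, 0 were called in any comparison. Of 8 B cell genes, 5 were lower in CP1 and 4 in CP2 than in P1, and 2 were higher in CP2 than in CP1.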
